A study of Caenorhabditis elegans with 6 samples.

Results

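Glutathione S-transferases (GSTs) are the enzymes that join the tripeptide glutathione to reactive or foreign compounds. Members were all genes of the count tables whose symbol is *gst*, *gsto* or *gstk* followed by a number and that had 10 or more reads in at least 3 of the 6 libraries. Of 46778 gene identifiers, 49 carried such a symbol, and 42 passed the read rule: 37 of 44 *gst* genes, 3 of 3 *gsto* genes and 2 of 2 *gstk* genes. All 42 reached 10 reads in at least 1 library of both genotypes, and 40 reached it in all 6. The exceptions were *gst-30* with 5 such libraries and *gst-14* with 4, and neither would pass on its wild type libraries alone.

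RNA was taken from whole young adult *Caenorhabditis elegans* of synchronized age, 3 biological replicates of wild type animals and 3 of *vhl-1* mutants. The labels give no strain, while the strain list of the study's methods has N2 as wild type and CB5602 *vhl-1(ok161)* as the *vhl-1* mutant, which the study calls a null. VHL-1 is the substrate receptor of a ubiquitin ligase that marks the transcription factor HIF-1 for degradation, so the comparison asks which transcripts differ when this control is missing. Both groups were kept at the same temperature with food, and 1 mutant strain stood for the loss of *vhl-1*. Whole animals were sampled, so fewer cells of a type and less RNA per cell cannot be told apart.

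Conjugation to glutathione makes lipid aldehydes, plant compounds and drugs more soluble, and the conjugates are then carried out of the cell by exporters. The worm has many more cytosolic GST genes than mammals, much of this through local gene duplication. The *gsto* genes encode omega class enzymes, which reduce rather than conjugate their substrates, and the *gstk* genes encode kappa class enzymes, which in mammals reside in mitochondria and peroxisomes. In the worm, *gst-4* is widely used as a reporter of SKN-1, the transcription factor that drives the response to oxidants.

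The libraries held between 52462303 and 82910026 reads on genes, and 1 read was worth 0.0121 to 0.0191 CPM, where CPM is the count scaled to a common library size. Levels are given in CPM after TMM normalization, as mean ± SD over 3 libraries. *vhl-1* itself stood at 6.98 ± 0.562 CPM in wild type and 0.0454 ± 0.0342 CPM in the libraries labelled *vhl-1*. All 19 markers of intestine, oocyte, sperm, body muscle, hypodermis and neuron chosen for whole adults were detected. Of them, 0 passed the test between genotypes in edgeR or DESeq2, or had an unadjusted p under 0.05 in edgeR. Over all genes these shares were 1.25%, 3.40% and 9.38%, so 0 of 19 does not show that tissues or stage were matched. In *vhl-1* the means of *vit-2*, *vit-6* and *col-19* were 38%, 40.4% and 59.3% of wild type. Those of *dpy-7* and *msp-19* were 151% and 142%, and the libraries overlapped in all these genes.

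*gst-19* was the member that differed most, and it went from one of the scarcest GST transcripts in wild type to the most abundant per length in *vhl-1*. Beside it, *gst-16* and *gst-38* rose, and *gst-29*, *gst-10*, *gst-4* and *gstk-1* fell. Thus 7 of 42 members (16.7%) passed an adjusted p of 0.05 in edgeR's quasi-likelihood test, against 1.25% of all 16596 genes tested. The 3 members that rose compare with a background of 0.874% in that direction, and the 4 that fell with one of 0.374%. DESeq2 called the same 7 members and *gst-28*, 8 in all, with a background of 3.40%.

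Rises and falls were about equal in number over the family, while the median size of the estimated changes was larger than over all genes. The median log2 fold change of the 42 members was 0.029, beside 0.0059 over all genes tested, with 22 members above 0 and 20 below. The median absolute log2 fold change was 0.30 for the members and 0.14 for all genes. These sizes include noise, as in *gst-14* (log2 fold change 1.19, standard error 1.14). The genes behind the background were not matched to the members in level or replicate spread. In 12 of 42 members (28.6%) the 3 wild type libraries and the 3 *vhl-1* libraries did not overlap in CPM, while the background was 14.4%. Among these 12 members, the *vhl-1* libraries lay above wild type in 3 and below it in 9. The background was not split by direction, so whether this lean is particular to the family was not tested. The 35 members that did not pass the test lay between -0.84 and 1.19 on the log2 scale, and 28 of them were within 0.5 of 0.

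**Figure D1:**
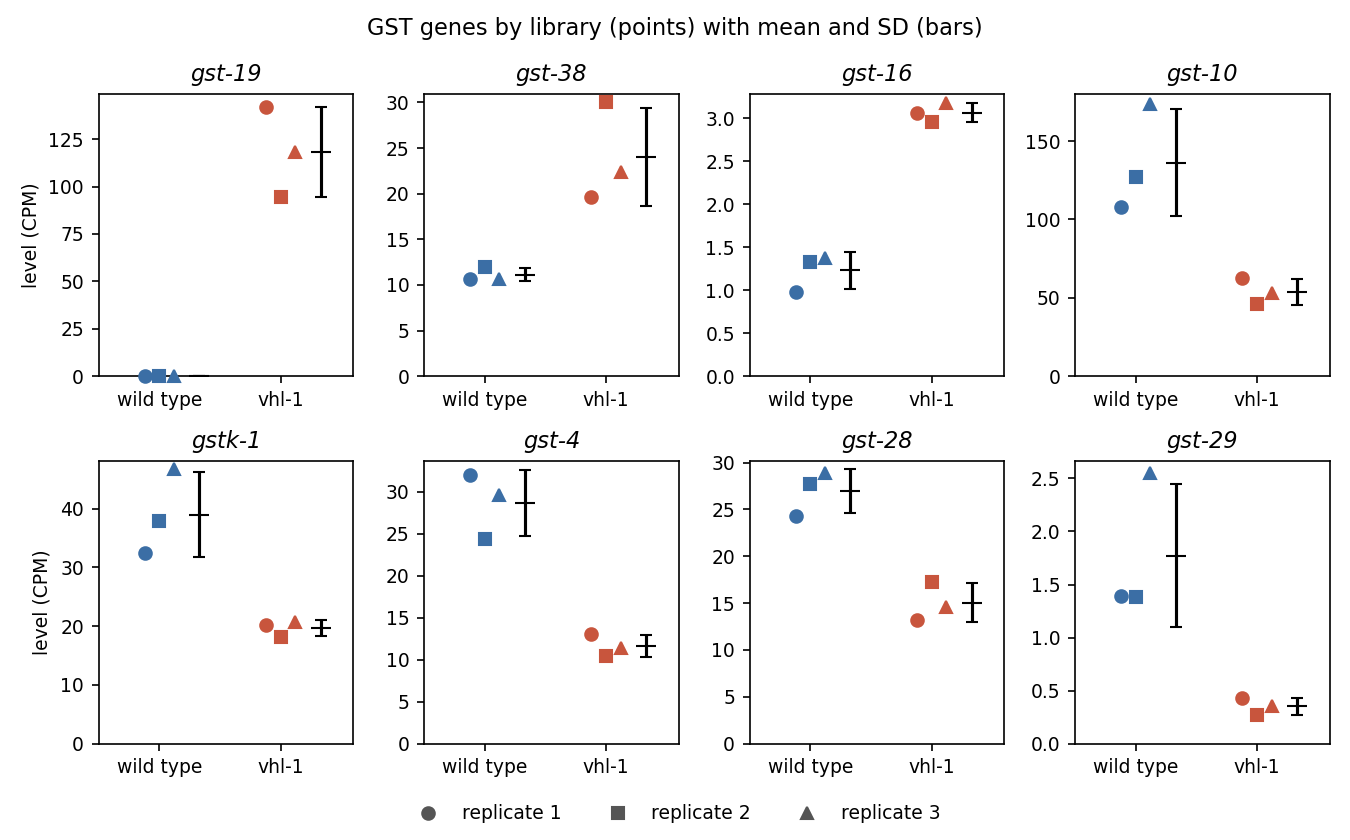
Level in CPM (vertical axes, each starting at 0) of GST genes in each library of wild type and *vhl-1* animals. Points are libraries, with the replicate number as the symbol, and bars are mean and SD of 3 libraries. *gst-19* goes from 0.271 to 118 CPM, while *gst-10* goes from 136 to 53.9 CPM.

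*gst-19* (WBGene00001767) lies on chromosome II from 13625545 to 13627145 on the minus strand, in 2 exons that encode 207 amino acids. Its reads numbered 18, 19 and 14 in the wild type libraries and 11969, 7685 and 7275 in the *vhl-1* libraries. In CPM this gave 0.229, 0.304 and 0.281 in wild type and 142, 94.4 and 118 in *vhl-1*. The 2 groups were far apart, with each set of replicates close together. The mean level was 0.271 ± 0.0385 CPM in wild type and 118 ± 23.7 CPM in *vhl-1*, 435-fold higher. The log2 fold change was 8.77 with a standard error of 0.24 and an adjusted p of 9.16e-05 in edgeR's quasi-likelihood test. It kept its call when any single library was left out, with log2 fold changes of 8.62 to 8.91 and adjusted p-values of 9.3e-05 to 0.00242.

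*gst-16* (WBGene00001764, chromosome II from 13622967 to 13624440) is the nearest member to *gst-19*, 1104 bases away, with the little-read *gst-17* 913 bases away on the other side. Its level was 0.98, 1.33 and 1.38 CPM in wild type and 3.06, 2.96 and 3.18 CPM in *vhl-1*. Every *vhl-1* library was above every wild type library, and the 3 *vhl-1* values were nearly equal. *gst-16* was 2.49-fold higher, with a log2 fold change of 1.32, a standard error of 0.20 and an adjusted p of 0.0423 in edgeR's quasi-likelihood test. Its gain of 1.84 CPM equalled 1.56% of the gain of *gst-19*. The highest *vhl-1* library of *gst-16* was replicate 3, and that of *gst-19* was replicate 1. Whether some 50-base reads of *gst-19* were assigned to *gst-16* was not tested.

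*gst-38* (WBGene00001786) lies alone on chromosome V from 15915162 to 15916070. It had 10.7, 12 and 10.7 CPM in the wild type libraries and 19.6, 30 and 22.4 CPM in the *vhl-1* libraries. The groups did not overlap, and the second *vhl-1* library was the highest. *gst-38* was 2.15-fold higher, with a log2 fold change of 1.10, a standard error of 0.18 and an adjusted p of 0.0489 in edgeR's quasi-likelihood test. Its nearest annotated protein-coding genes on both sides, F35E8.7 and F35E8.9, had 0 reads in all 6 libraries.

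*gst-10* (WBGene00001758, chromosome V from 2561690 to 2564645) encodes a worm GST known to conjugate the lipid peroxidation product 4-hydroxynonenal. Its level was 108, 127 and 174 CPM in wild type and 62.8, 46.2 and 52.8 CPM in *vhl-1*. The lowest wild type library was well above the highest *vhl-1* library. *gst-10* fell to 39.6% of the wild type mean, with a log2 fold change of -1.34, a standard error of 0.20 and an adjusted p of 0.0397 in edgeR's quasi-likelihood test. Its neighbour Y45G12C.1 had a log2 fold change of -0.49 and did not pass the test (adjusted p = 0.346).

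*gst-4* (WBGene00001752, chromosome IV from 10142225 to 10143099), the SKN-1 reporter gene, had 32, 24.4 and 29.6 CPM in wild type and 13.1, 10.4 and 11.4 CPM in *vhl-1*. The groups were clearly separated. *gst-4* fell to 40.5% of the wild type mean, with a log2 fold change of -1.30, a standard error of 0.15 and an adjusted p of 0.016, which was the second lowest adjusted p in the family. The gene shares 8.89% of its exon bases with *dhs-12* on the same strand, and *dhs-12* had a log2 fold change of -0.21 (adjusted p = 0.416). Reads in that shared stretch cannot be assigned to one gene or the other.

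*gst-29* (WBGene00001777, chromosome II from 15168538 to 15169861) was a low transcript with 1.39, 1.38 and 2.55 CPM in wild type and 0.427, 0.27 and 0.357 CPM in *vhl-1*. The third wild type library was the highest, and the groups did not overlap. *gst-29* fell to 19.8% of the wild type mean, with a log2 fold change of -2.32, a standard error of 0.36 and an adjusted p of 0.0415 in edgeR's quasi-likelihood test. The neighbouring gene *gst-28* (WBGene00001776, 960 bases away, from 15166194 to 15167577) had 24.3, 27.7 and 28.9 CPM in wild type and 13.2, 17.3 and 14.6 CPM in *vhl-1*, again without overlap. *gst-28* had a log2 fold change of -0.84 with a standard error of 0.14 and missed the threshold in edgeR (adjusted p = 0.0529), while DESeq2 called it (adjusted p = 4.27e-05).

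*gstk-1* (WBGene00014251, chromosome II from 9656705 to 9657719), a kappa class gene, had 32.4, 37.9 and 46.7 CPM in wild type and 20.2, 18.1 and 20.7 CPM in *vhl-1*. The groups did not overlap, and the wild type libraries varied more than the mutant ones. *gstk-1* fell to 50.4% of the wild type mean, with a log2 fold change of -0.99, a standard error of 0.15 and an adjusted p of 0.0426. Its neighbour ZK1307.1 had a log2 fold change of -0.73 (adjusted p = 0.254), and ZK1320.2 on the other side had one of -0.0051. The other kappa class gene, *gstk-2*, stood at 6.03 ± 0.526 CPM in wild type and 5.54 ± 0.179 CPM in *vhl-1*, with a log2 fold change of -0.12 (adjusted p = 0.96).

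Fits without 1 library called 49 to 161 genes in place of 207, and *gst-19* was the only member called in all 6 of them. The fold changes of the other called members moved little. The log2 fold change stayed at 1.18 to 1.41 for *gst-16*, 0.91 to 1.23 for *gst-38* and -2.49 to -1.97 for *gst-29*, but these 3 members missed the threshold in every such fit. Their adjusted p-values were 0.0755 to 0.225 for *gst-16*, 0.0601 to 0.211 for *gst-38* and 0.0624 to 0.223 for *gst-29*. *gst-10* and *gstk-1* kept the call only without the first wild type library, at adjusted p-values of 0.0371 and 0.0332, with log2 fold changes of -1.48 to -1.13 and -1.11 to -0.84 over the 6 fits. *gst-4*, with log2 fold changes of -1.42 to -1.21, kept the call without the first wild type library (0.0409), the first *vhl-1* library (0.0399) or the second *vhl-1* library (0.0498). *gst-4* lost it without the second wild type library (0.0517), the third wild type library (0.0894) or the third *vhl-1* library (0.131).

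Summed over the 42 members, transcript levels were similar in both genotypes. The sum was 877.1, 1009.3 and 1190.7 CPM in the wild type libraries and 937.8, 1002.7 and 933.8 CPM in the *vhl-1* libraries. All 3 *vhl-1* sums lay within the range of the wild type sums. The mean sums were 1026 ± 157 and 958 ± 38.7 CPM, a difference of -67.6 CPM. The make-up of the sum differed. Members called higher gained 133 CPM, of which *gst-19* gave 118 CPM, and those called lower changed by -120 CPM. These members were picked by their calls in the same libraries, so a gain and a loss follow from the choice. *gst-19* went from 0.0265% to 12.3% of the summed CPM, *gst-10* went from 13.3% to 5.63%, and *gst-1* was at 11.8% and 11.3%. Without *gst-19* the sum was 1025 ± 157 CPM in wild type and 840 ± 60 CPM in *vhl-1*.

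To compare genes with each other, CPM was divided by the length of the annotated exons in kilobases. In wild type animals the members ranged from 0.308 to 190 CPM per kb, with 20 members above 10 and 20 below 5. The highest were *gst-10* at 190 ± 46.9, *gst-1* at 162 ± 8.37 and *gst-27* at 130 ± 25.1 CPM per kb. The SDs of *gst-10* and *gst-1* overlapped, so their order in wild type was not clear. In *vhl-1* animals *gst-19* ranked first of 42 at 177 ± 35.5 CPM per kb, from rank 40 in wild type at 0.406 ± 0.0576. *gst-10* went from rank 1 to rank 8, at 75 ± 11.6 CPM per kb. *gst-1* kept rank 2 at 145 ± 10.4 CPM per kb, within the SD of *gst-19*.

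**Figure D2:**
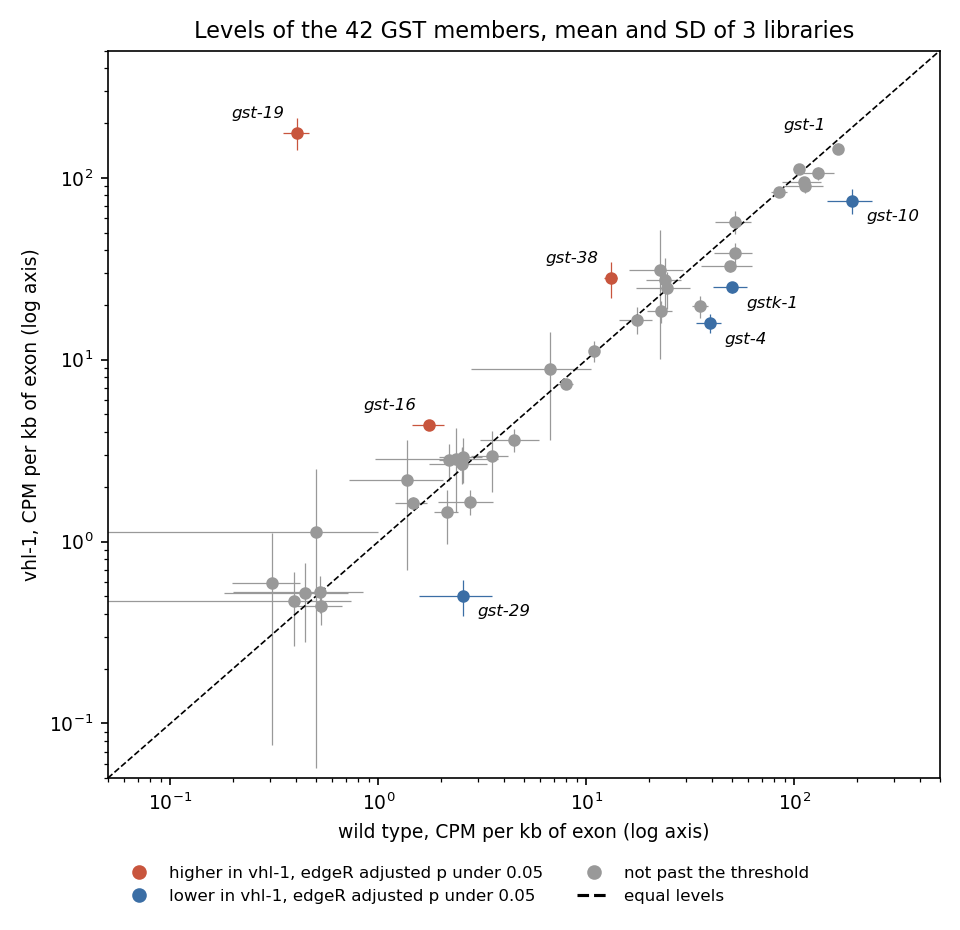
Mean level of the 42 members in wild type (horizontal axis) and *vhl-1* animals (vertical axis), both in CPM per kb of exon on log axes, with SD bars over 3 libraries. Lower SD bars that would reach 0 are shortened to stay on the axis. *gst-19* sits far above the dashed line of equal levels, at 0.406 and 177 CPM per kb, and most members lie close to that line.

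*gst-1*, which is linked in worms to protection of dopamine neurons from manganese, had 118, 118 and 129 CPM in wild type and 116, 100 and 109 CPM in *vhl-1*. These groups did not overlap, but the gap was small, with a log2 fold change of -0.16, a standard error of 0.09 and an adjusted p of 0.727. *gst-27* had 78.1, 96.5 and 115 CPM in wild type and 74.4, 86.6 and 75.4 CPM in *vhl-1*, with overlapping groups, a log2 fold change of -0.30, a standard error of 0.15 and an adjusted p of 0.704. *gst-42*, the zeta class maleylacetoacetate isomerase of tyrosine breakdown, stood at 49.7 ± 13.6 CPM in wild type and 33.1 ± 2.11 CPM in *vhl-1*. Its log2 fold change was -0.59 and did not pass the test (adjusted p = 0.357), although its groups did not overlap. *gst-33* (log2 fold change -0.72, adjusted p = 0.457) and *gst-23* (log2 fold change -0.54, adjusted p = 0.743) were likewise lower in every *vhl-1* library and not called.

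Of the 3 *gsto* genes 0 passed the test in edgeR or DESeq2, and 0 had an unadjusted p under 0.05. With shares over all genes of 1.25%, 3.40% and 9.38%, 0 of 3 says little. *gsto-1* stood at 19.3 ± 3.69 CPM in wild type and 22.2 ± 6.9 CPM in *vhl-1*, with a log2 fold change of 0.21. *gsto-2* was scarce in both, at 0.446 ± 0.276 and 0.449 ± 0.104 CPM, and *gsto-3* had 10.1 ± 0.557 and 10.4 ± 1.38 CPM. Their log2 fold changes were 0.037 and 0.042. The groups overlapped in all 3 genes, and all 3 changed sign in at least 1 fit without 1 library.

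GST genes lie close together in the worm genome, and 21 of the 42 members are on chromosome II. Joining annotated GST genes with gaps of at most 20 kb gave 4 clusters, which together held 25 of the 49 genes. The cluster from *gst-20* to *gst-18* spans 22.7 kb on chromosome II (13608154 to 13630887) and has 9 genes, all on the minus strand. Of its 7 members, *gst-19* and *gst-16* rose. The cluster from *gst-26* to *gst-35* spans 21.6 kb (15163817 to 15185389) with 9 genes on the minus strand, and of its 7 members only *gst-29* passed the test. The third cluster, from *gst-6* to *gst-9* (chromosome II, 4879891 to 4893573), had 3 members and 0 calls in edgeR or DESeq2, and 0 at an unadjusted p under 0.05. *gst-4* lies in the smallest cluster, with *gst-3* and *gst-2* (chromosome IV, 10139380 to 10143099), and was its single call. Outside the clusters, 3 of 22 members were called. Over all genes the shares were 1.25% in edgeR, 3.40% in DESeq2 and 9.38% at an unadjusted p under 0.05, so 0 of 3 members says little about a cluster.

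**Figure D3:**
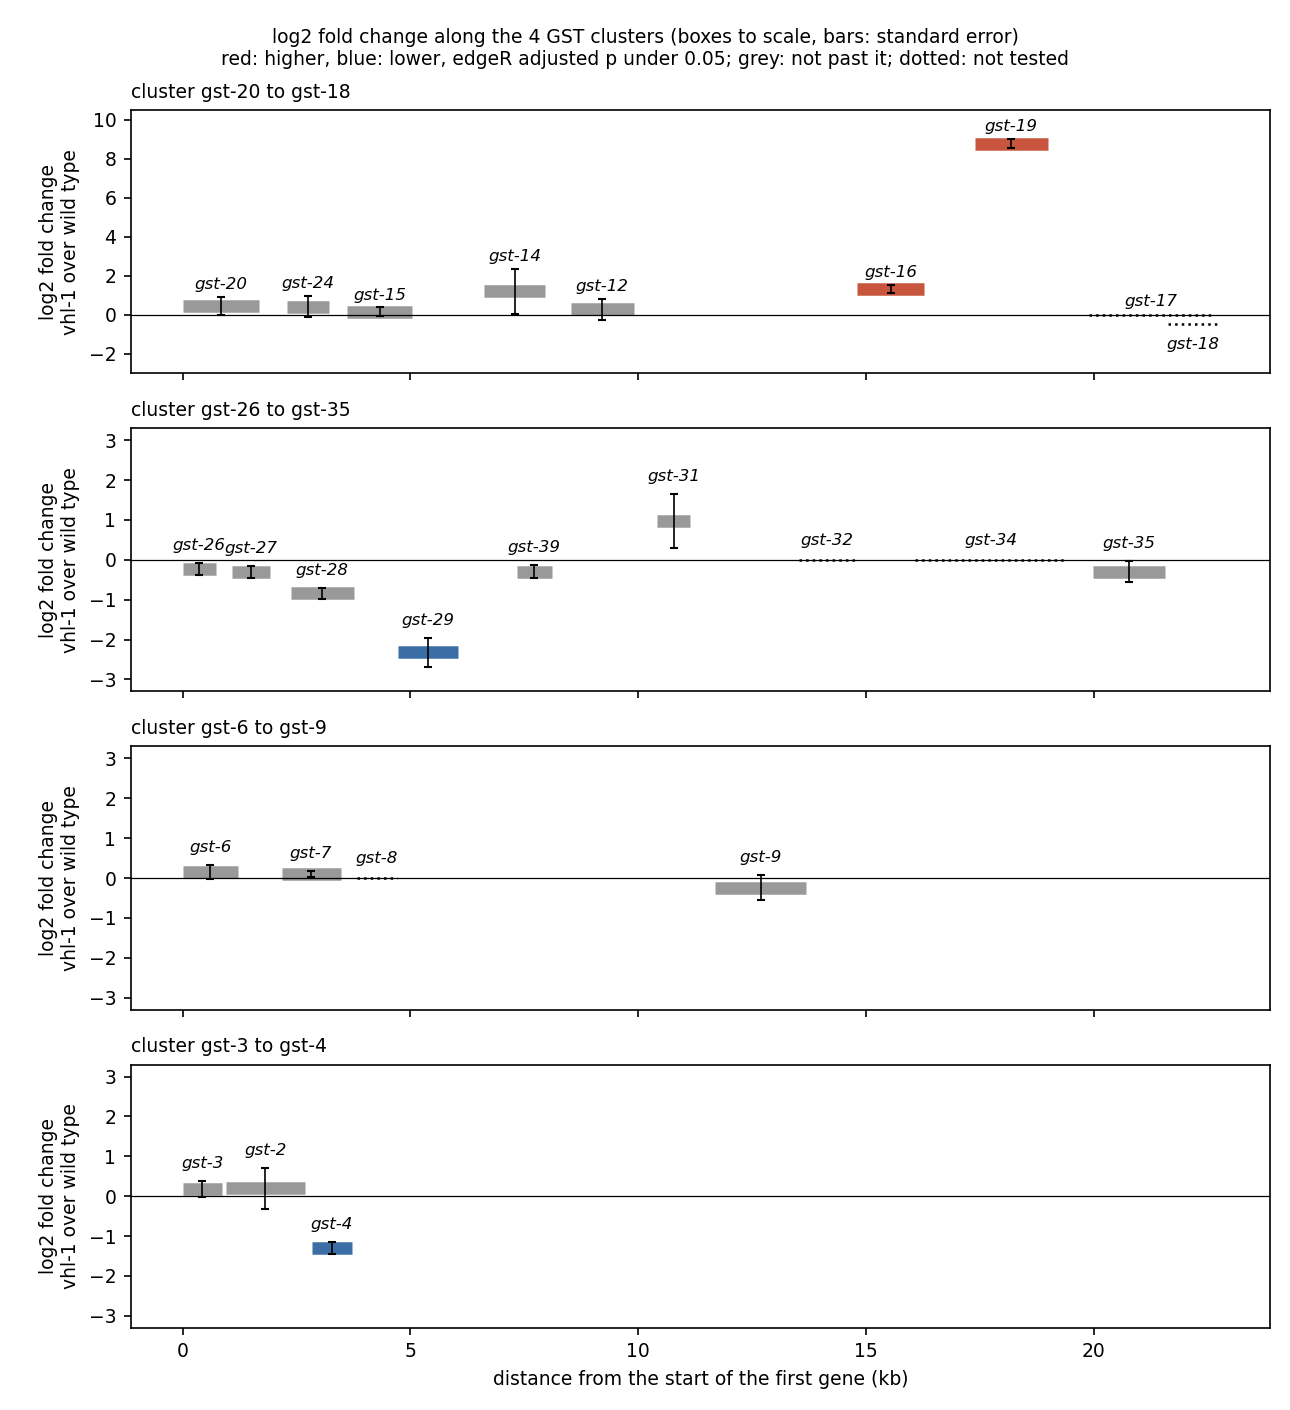
Log2 fold change (vertical axes, with standard error bars) of the GST genes in each of the 4 clusters against the distance from the start of the first gene in kb. Boxes are gene spans to scale, coloured by the edgeR call, and dotted boxes were not tested. In the cluster of *gst-19* the neighbouring members lie between 0.15 and 1.32, against 8.77 for *gst-19*.

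Adding the reads of each cluster to 1 row gives a value that does not depend on which gene of that cluster a read was assigned to. Reads that were lost, or assigned to GST genes elsewhere, would still change it. The cluster of *gst-19* then held 1557, 2426 and 1321 reads in wild type and 13833, 13045 and 9187 in *vhl-1*. Its log2 fold change was 2.48 with a standard error of 0.24 and an adjusted p of 0.00795 in edgeR's quasi-likelihood test. The cluster of *gst-4* had a log2 fold change of -1.12 (adjusted p = 0.0193). The cluster of *gst-29* had one of -0.34 (adjusted p = 0.586) and that of *gst-6* one of 0.11 (adjusted p = 0.931), and neither passed the test.

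The other 5 members beside *gst-19* did not pass the test, with adjusted p-values of 0.927 or more. *gst-20* had 13.2, 23.9 and 18 CPM in wild type and 13.2, 44.9 and 17.9 CPM in *vhl-1* (log2 fold change 0.46, standard error 0.47). *gst-24* had 2.89, 8.18 and 3.69 CPM and 2.92, 10.7 and 6.14 CPM (log2 fold change 0.42, standard error 0.56). In both genes the groups overlapped and the second library of each genotype was the highest. *gst-14* had 0.102, 0.752 and 0.201 CPM in wild type and 0.0949, 1.92 and 0.373 CPM in *vhl-1* (log2 fold change 1.19, standard error 1.14). *gst-12* had 0.992, 3.33 and 1.75 CPM and 1.58, 3.77 and 1.95 CPM (log2 fold change 0.27, standard error 0.52). These repeated the order of *gst-20* and *gst-24*, with both second libraries on top. *gst-15* had 1.30, 0.912 and 1.10 CPM in wild type and 1.11, 1.31 and 1.27 CPM in *vhl-1* (log2 fold change 0.15, standard error 0.22), with no such order in wild type.

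**Figure D4:**
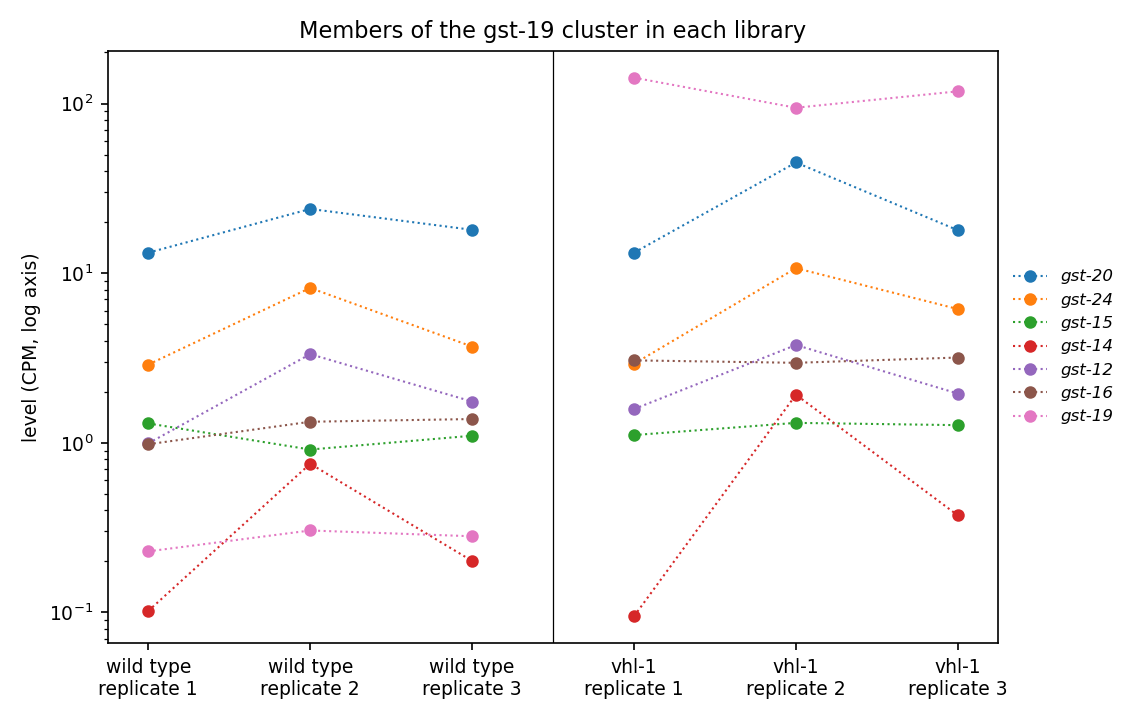
Level in CPM on a log axis (vertical) of the 7 members of the *gst-19* cluster in each of the 6 libraries (horizontal). Dotted lines join libraries of 1 genotype for reading only. *gst-19* separates the genotypes, from 0.304 CPM or less to 94.4 CPM or more, while *gst-20*, *gst-24*, *gst-14* and *gst-12* peak in the second library of both genotypes.

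The second libraries stood apart in the same direction for these 4 genes. In *gst-14* the second library had 4.98 times the mean of the other wild type libraries and 8.19 times that of the other *vhl-1* libraries. In *gst-20* these ratios were 1.53 and 2.89. Over the family, 8 of 42 members (19%) were highest in both second libraries, and 15.9% of all genes tested were. The second *vhl-1* library also had the lowest summed level of the 4 oocyte markers, 146 CPM against 207 to 671 in the other libraries, and of the 3 sperm markers, 44.6 against 59.5 to 94.6 CPM. Its 4 intestine markers summed to 695 CPM against 2930 to 14085 CPM, through the yolk protein genes *vit-2* (250 CPM) and *vit-6* (350 CPM). The intestine markers *ges-1* and *elt-2* had 62.7 and 32.5 CPM there. They had 65.1 and 32 CPM in the first and 66.4 and 31.3 CPM in the third *vhl-1* library. Of the hypodermis markers, *col-19* was lowest there (31.4 CPM) and *dpy-7* highest (248 CPM). The 3 neuron markers summed to 158 CPM there, against 138 to 149 CPM in the other libraries. The part of these differences in the GST values was not tested. In a fit without both second libraries, which called 0.222% of all genes (37 of 16635), *gst-19* was the single member called. The log2 fold changes of the other members called with all 6 libraries were then 1.41 for *gst-16*, 0.97 for *gst-38*, -1.29 for *gst-10*, -1.33 for *gst-4*, -2.31 for *gst-29* and -0.95 for *gstk-1*.

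Of the genes within 20 kb of *gst-19* that are not GST genes, none passed the test. With 1.25% of all genes called, this says little for so few genes. On the side of *gst-18* lie *tag-10* (log2 fold change -0.09), *phdh-1* and *fbxa-167* (log2 fold change 0.12). *phdh-1* had 127, 203 and 240 CPM in wild type and 357, 308 and 309 CPM in *vhl-1*, without overlap, and its log2 fold change of 0.77 did not pass the test (adjusted p = 0.261). Between *gst-19* and these genes lie *gst-17* and *gst-18*, with at most 17 reads in any library.

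The 7 annotated GST genes under the read rule were *gst-8*, *gst-17*, *gst-18*, *gst-25*, *gst-32*, *gst-34* and *gst-37*, and none entered the edgeR fit over all 6 libraries. DESeq2 gave 6 of them an adjusted p, 0.991 or more. They reached at most 31 reads in a library, and *gst-37* had 0 reads in all 3 wild type libraries. The coding regions of the 42 members predicted proteins of 188 to 309 amino acids with a median of 209.

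A list of 24 related genes was examined beside the family. It held genes of glutathione synthesis and reduction, glutathione peroxidases and MRP exporters. It also held the regulators *skn-1* and *wdr-23* and 3 genes for GST-fold proteins outside the naming rule. All 24 genes were tested. In edgeR, 0 of them rose and 1 fell (4.17% of the list, against the 1.25% of all genes), with a median log2 fold change of 0.023. At an unadjusted p under 0.05 there were 3 higher and 2 lower, 20.8% of the list against 9.38% of all genes. The higher ones included both regulators, *skn-1* and *wdr-23*. DESeq2 called 0 higher and 2 lower, 8.33% of the list against 3.40%. The single call was *mrp-3*, an exporter of the MRP family, some of which carry glutathione conjugates. *mrp-3* had 62.3, 61.3 and 71.7 CPM in wild type and 45.1, 38.8 and 41.7 CPM in *vhl-1*, with no overlap. Its log2 fold change was -0.64 with a standard error of 0.10 and an adjusted p of 0.0466 in edgeR's quasi-likelihood test, and the call was lost whenever 1 library was left out (adjusted p = 0.075 to 0.259).

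The genes for glutathione itself were close to equal. *gcs-1*, the rate-limiting enzyme of its synthesis and a SKN-1 target, stood at 122 ± 1.11 CPM in wild type and 118 ± 6.13 CPM in *vhl-1*. Its log2 fold change was -0.047, beside 0.011 for *gss-1*, the second enzyme of the synthesis, and -0.11 for *gsr-1*, glutathione reductase. Of 8 glutathione peroxidase genes 0 passed edgeR's test, 1 had an unadjusted p under 0.05, and DESeq2 called that gene, *gpx-7* (log2 fold change -0.66 and adjusted p = 0.144 in edgeR, adjusted p = 0.00999 in DESeq2). The shares over all genes were 1.25% in edgeR, 9.38% unadjusted and 3.40% in DESeq2, so these counts say little. *skn-1* stood at 130 ± 5.23 CPM in wild type and 165 ± 8.62 CPM in *vhl-1*, without overlap, and did not pass the test (log2 fold change 0.34, adjusted p = 0.138). *wdr-23*, which encodes the adaptor that targets SKN-1 for degradation, stood at 56.2 ± 4.09 and 66.6 ± 3.42 CPM (log2 fold change 0.25, adjusted p = 0.422). The 3 proteins with a GST fold outside the naming rule, encoded by *eef-1G*, *exc-4* and *exl-1*, had log2 fold changes of -0.087 to 0.077.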

How the data were processed

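Deposited values were raw read counts per gene, 1 table for each of the 6 libraries. The authors made these counts from single-end 50-base reads, trimmed with Trim Galore! 0.4.3.1, aligned with STAR 2.6.0b and counted with featureCounts 1.6.3. The genome build, annotation, strand setting and treatment of reads with several alignments were not given in the sources used here, so reads of near-identical GST genes may be lost or split. Symbols, coordinates and lengths came from Ensembl release 115 (WBcel235), which held 46603 of the identifiers.

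Genes were filtered with filterByExpr, normalized by TMM and tested with edgeR 4.0.16 (glmQLFit, glmQLFTest) in R 4.3.3, with genotype as the single term. P-values were adjusted by the Benjamini-Hochberg method over all genes tested, and the threshold was 0.05. DESeq2 1.42.0 was an alternative. The F statistic and the fold change gave each standard error. Alternatives were other normalizations, filters and thresholds, a replicate block, added cluster reads and fits without 1 library, and, chosen after seeing the data, without both second libraries.

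Members and gene lists were chosen with earlier results of these data known. Genes described in full were those past the threshold, the cluster of *gst-19*, *gst-4*, *gst-10*, the 3 largest changes in each direction without overlap and the 3 highest levels per length in wild type. *gst-28*, *gst-42*, *gst-33*, *gst-23* and the pathway examples were named after their values were seen. The replicates are described as biological, and their counts differed beyond sampling noise.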

Additional observations from a re-analysis of the deposited data

How the results depend on the processing

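*gst-19* kept its direction and its call under every alternative that gave it a value of its own, while with added cluster reads only the cluster was tested. The number of members past the threshold, 7 (3 higher, 4 lower), was 5 with upper-quartile factors, 6 with at least 10 reads in every library, and 8 with DESeq2, DESeq2's size factors, library size alone or no filter. It was 1 (1 higher, 0 lower) at an adjusted p of 0.01 and also without both second libraries, a fit that called 37 of 16635 genes and left the log2 fold changes of the other 6 members at 0.95 or more in size and in the same direction. It was 1 to 4 (1 higher, 0 to 3 lower) with 1 library left out. The median log2 fold change lay between -0.12 and 0.04 with 1 library left out, the lowest without *vhl-1* replicate 2. The summed level without *gst-19* was lower in *vhl-1* by a difference of -185 CPM.

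Among the genes tried, directions turned only in members that were not called. With 1 library left out, the log2 fold change lay between -0.24 and 0.77 for *gst-20*, -0.12 and 0.98 for *gst-24*, -0.63 and 2.41 for *gst-14*, -0.20 and 0.82 for *gst-12*, -0.077 and 0.35 for *gsto-1*, -0.26 and 0.64 for *gsto-2*, and -0.046 and 0.14 for *gsto-3*. The lowest value came without *vhl-1* replicate 2 for the first 5 of these genes. Further uncalled members also crossed 0 in these fits, among them *gst-30* (-0.23 to 1.14), *gst-2* (-0.25 to 0.82) and *gst-41* (-0.077 to 1.01). Without both second libraries, *gst-20* was at -0.0059, *gst-15* at -0.017, *gsto-1* at -0.048 and *gsto-2* at -0.28. *mrp-3* lost its call in that fit with its log2 fold change at -0.63, beside -0.64 with all libraries. The cause was not tested.

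Same-numbered libraries had deviation correlations of 0.587, 0.51 and -0.0212, so the numbers were not taken as pairs. A replicate block gave 8 members in edgeR and 8 in DESeq2, the 7 members and *gst-28*, and 354 genes in all in edgeR in place of 207. Of all calls, 70% were higher in *vhl-1* with edgeR and 51.7% with DESeq2, which called 650 genes. Calls over all genes numbered 49 to 161 with 1 library left out. At the depth of these libraries 1 read is at least 0.0121 CPM, which limits what can be seen in the 7 genes under the read rule. Protein and promoter sequences were not used here, and the planned comparisons of them were not run.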
